A study of Homo sapiens with 4 samples.

Results

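The aldehyde dehydrogenase genes were examined in RNA-seq of SKOV3, a human ovarian cancer line. The 10 genes were ALDH1A1, ALDH1A2, ALDH1A3, ALDH1B1, ALDH2, ALDH3A1, ALDH3A2, ALDH3B1, ALDH7A1 and ALDH18A1. They were chosen by symbol, and all 10 were found among the 19475 gene symbols of the deposited table. The study compared 2 libraries of SKOV3 cells on a tissue culture plate (TCP), labelled day 0, with 2 libraries of tumor spheroids grown for 8 days on plates coated with polymer X, a thin film to which cells attach poorly. The labels name no transgene or knockdown in these libraries. The spheroids were grown in medium with serum replacement and, by the study's methods, were dissociated with accutase during culture, whereas SKOV3 cells were maintained in fetal bovine serum. The medium used on TCP is not certain, because a single protocol, with serum replacement, is attached to every library. Substrate, culture time and possibly medium changed together between the groups, and their parts cannot be told apart. The labels do not say whether the 2 libraries of a group came from separate cultures, so the p-values measure only the spread between these libraries.

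Aldehyde dehydrogenases oxidize aldehydes to carboxylic acids with NAD or NADP as the electron acceptor. The ALDH1A enzymes make retinoic acid from retinaldehyde in the cytosol, and ALDH1A1 is widely used as a marker of cancer stem-like cells. Stem-like cells are often sorted by a fluorescent assay of aldehyde dehydrogenase activity, to which several isoforms of the family can contribute. No enzyme activity was measured in the files used here, so the values below describe transcripts only and not activity.

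In its real-time PCR the study measured ALDH1A1 among its markers of cancer stem-like cells and reported it as higher on polymer X than on TCP. The primer pair is shown here because its sequence bears on which isoform that assay could read. Each primer is given in its own direction, followed by the closest site in a transcript of ALDH1A2, the other member with the fewest mismatches, with mismatched bases in capitals.
ALDH1A1 forward primer: gatgccgacttggacaatgc
ALDH1A2 site for the forward primer: gatgcTgacttggacTatgc
ALDH1A1 reverse primer: tcttagcccgctcaacactc
ALDH1A2 site for the reverse primer: tcttGgcccgctcCacGctT
In the GENCODE transcripts of GRCh38, both primers matched without a mismatch only in ALDH1A1, where they enclosed 145 bases (chromosome 9, 72916970 to 72918729). The product lay in the coding sequence, with the forward primer across the junction of exons 8 and 9 of 13 and the reverse primer in exon 9. The ALDH1A2 sites had 2 mismatches to the forward and 4 to the reverse primer, and the remaining members had at least 4 to either. These ALDH1A2 sites enclosed bases 1660 to 1804 of its transcript, and whether the pair amplifies ALDH1A2 was not tested.

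On polymer X the values of the 10 genes lay in both directions. ALDH1B1, a mitochondrial enzyme, fell 2.93-fold and was the 1 member called lower. No member was called higher, where a call needed a limma adjusted p under 0.05 and a log2 fold change of 1 or more. ALDH2, the mitochondrial enzyme best known for clearing acetaldehyde, was 2.62-fold higher in FPKM (mapped sequence tags scaled to transcript length and library size), but stayed short of that fold change on the scale of log2(FPKM + 1). ALDH1A1 and ALDH1A2 lay close to the limit of detection in all 4 libraries. Of the 10 genes, 7 reached an FPKM of 1 in 2 or more libraries and were tested among 11964 genes, of which 10.7% were called higher and 9.45% lower. Without a fold change minimum, 2 members were higher and 4 were lower, where the same rule took 37.4% of all tested genes as higher and 43.6% as lower. The median log2 fold change of the 7 members was -0.27, against -0.06 over all tested genes. With 2 libraries on each side no exact permutation test could reach 0.05, and the adjusted p-values depend on variances that limma pools over genes. In all 7 tested members the libraries of the groups did not overlap, with 2 higher and 5 lower on polymer X, as was so for 41.9% and 48.4% of tested genes. ALDH1A1, ALDH1A2 and ALDH3A1 also lay higher in both polymer X libraries.

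**Figure D1:**
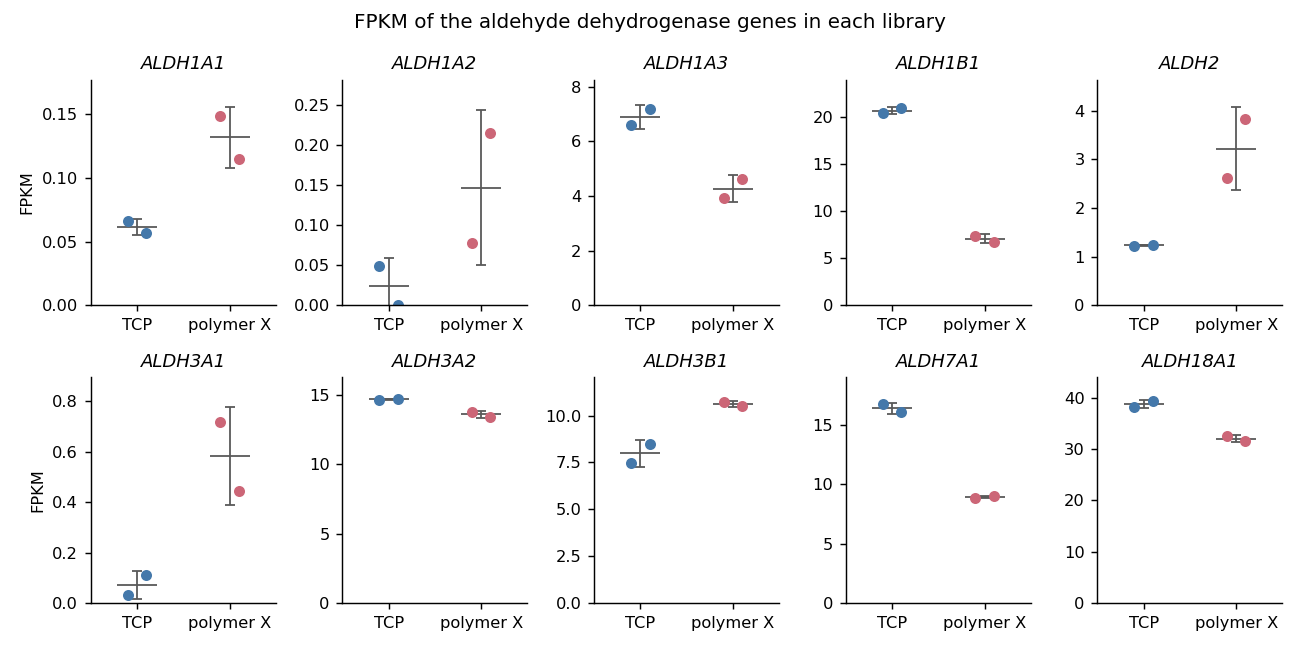
FPKM (vertical axes, from 0 and scaled to each gene) of the 10 genes in the TCP libraries (blue) and the polymer X libraries (red), with the group mean and SD (n = 2) as gray bars, the lower bar of ALDH1A2 on TCP being cut at 0. The libraries of the groups do not overlap in any of the 10 panels, and ALDH1A1, ALDH1A2 and ALDH3A1 stay under an FPKM of 1 in every library.

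The libraries held between 38404000 and 44918000 tags, as recovered from the smallest steps between FPKM values. Replicates differed by more than counting noise (mean chi-square over genes 4.98 for TCP, 5.67 for polymer X). Of 5 epithelial and SKOV3 markers, ERBB2, KRT8 and KRT18 had an FPKM of at least 89.3 in every library, whereas EPCAM and KRT19 were at most 1.39. ERBB2 and EPCAM were called higher on polymer X (log2 fold changes 2.13 and 1.05), EPCAM having passed the filter only through the polymer X libraries. KRT8 and KRT18 were lower, at -0.87 and -0.44, and KRT19 was not tested. None of 5 leukocyte markers passed the filter. Their summed FPKM was 0.171 and 0.105 on TCP and 0.839 and 1.03 on polymer X, with the T cell marker CD3E at 0 in all 4 libraries and PTPRC, the pan-leukocyte marker CD45, at 0.005 and 0 on TCP and 0.468 and 0.530 on polymer X. Of 5 endothelial markers none passed either, with sums of 0.509 and 0.478 against 0.855 and 0.628. Within that list PECAM1 was at 0 in both TCP libraries and at 0.573 and 0.458 on polymer X, whereas KDR was at 0.476 and 0.438 on TCP and 0.215 and 0.110 on polymer X. The summed FPKM of 5 fibroblast markers was 16.9 and 17.4 on TCP and 57.3 and 52.5 on polymer X. These markers did not all go one way: of the 3 tested, COL1A2 and DCN were called higher, DCN having passed the filter only through the polymer X libraries, while COL1A1 was lower, with an FPKM of 8.21 and 8.47 on TCP and 3.81 and 3.77 on polymer X (log2 fold change -0.96). PDGFRA and PDGFRB stayed at 0.291 or less in every library. The part of these markers in the results below was not tested. In bulk RNA, fewer cells that express a gene and less RNA per cell cannot be told apart.

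Among the retinaldehyde dehydrogenases, ALDH1A3 was the 1 member with more than trace levels. ALDH1A3 (NM_001293815, hg19 chromosome 15, 101419897 to 101456830, plus strand) had an FPKM of 6.58 and 7.20 in the TCP libraries and 3.92 and 4.62 in the polymer X libraries. Both polymer X libraries lay under both TCP libraries. The mean went from 6.89 ± 0.436 to 4.27 ± 0.491 (SD, n = 2), or -0.58 on the log2 scale (SE 0.08, limma adjusted p = 0.000147) and short of the fold change minimum. HOMER counted tags on either strand here, and an antisense gene of the GENCODE annotation, AC015712.2, shares most of the 43.1% of 50-base words that an ALDH1A3 transcript has in common with other genes. Tags of the pair cannot be told apart in these values.

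ALDH1A1 (NM_000689, hg19 chromosome 9, 75515578 to 75568233, minus strand) had an FPKM of 0.066 and 0.057 on TCP and 0.149 and 0.115 on polymer X. These values stood for 6 and 6 tags on TCP and 14 and 11 on polymer X, where 3 tags correspond to an FPKM of 0.0284 to 0.0332. The polymer X libraries held the higher values, but a total of 12 against 25 tags left a wide range. The ratio scaled to library size was 2.15, with an exact 95% interval of 1.04 to 4.70 that covers counting error only, and the interval was 0.717 to 6.70 if tags came as mates of pairs. ALDH1A1 was not among the tested genes. With no filter and a pseudocount of 0.1, chosen after seeing the data, its log2 fold change was 0.52 (SE 0.16, limma adjusted p = 0.0356), again short of the minimum. Per length, ALDH1A3 exceeded ALDH1A1 by 99.8-fold and 126-fold on TCP and by 26.3-fold and 40.1-fold on polymer X.

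ALDH1A2 (NM_170697, hg19 chromosome 15, 58245622 to 58306295, minus strand) was as scarce, with an FPKM of 0.049 and 0 on TCP and 0.078 and 0.215 on polymer X. The counts behind them were 6 and 0 tags against 10 and 28. The spread between the polymer X libraries was wider than the difference between the group means. The ratio scaled to library size was 6.54, with an exact 95% interval of 2.74 to 18.9 for counting error, or 1.92 to 34.5 if tags came in pairs. With no filter and a pseudocount of 0.1 its log2 fold change was 0.96 (SE 0.35, limma adjusted p = 0.0618). Summed over the 3 retinaldehyde dehydrogenases, the FPKM was 6.70 and 7.26 on TCP and 4.15 and 4.95 on polymer X, a fold of 0.652 that followed ALDH1A3.

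The mitochondrial pair differed in opposite directions. ALDH1B1 (NM_000692, hg19 chromosome 9, 38392661 to 38398662, plus strand), which oxidizes acetaldehyde and also retinaldehyde, had an FPKM of 20.4 and 20.9 on TCP and 7.39 and 6.70 on polymer X. Its mean fell from 20.6 ± 0.392 to 7.05 ± 0.486 (SD, n = 2), or -1.43 on the log2 scale (SE 0.07, limma adjusted p = 6.83e-08). The fall rested on 2398 and 2881 tags against 907 and 836. It kept its direction and its call under every alternative that used the same fold change minimum, with log2 fold changes from -1.54 to -1.34.

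ALDH2 (NM_001204889, hg19 chromosome 12, 112204691 to 112247789, plus strand) had an FPKM of 1.22 and 1.24 on TCP and 2.61 and 3.82 on polymer X. The TCP libraries were nearly equal, and those on polymer X lay further apart but both above TCP. Its log2 fold change was 0.90 (SE 0.12, limma adjusted p = 0.000104). It was called higher with a pseudocount of 0.1 (1.30, limma adjusted p = 0.000108), as were 15.4% of all tested genes. With the transcripts of each gene summed it was also called higher (1.08), as were 1644 of 12490 genes. Its 2 transcripts had nearly the same tags, so summing them raises the FPKM against the fixed pseudocount, and the fold change with it, by construction. Without polymer X replicate 1 the log2 fold change was 1.11. Without polymer X replicate 2 it was 0.70, and under quantile normalization 0.63 (adjusted p = 0.00328). About 29.3% of the 50-base words of an ALDH2 transcript also occur in AC002996.1, a protein-coding gene model of GENCODE. The ratio of ALDH1B1 to ALDH2 in FPKM was 16.7 and 16.9 in the TCP libraries and 2.83 and 1.75 in the polymer X libraries. The summed FPKM of the pair nevertheless went from 21.6 and 22.2 to 10.0 and 10.5, ALDH1B1 being the larger part on TCP.

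**Figure D2:**
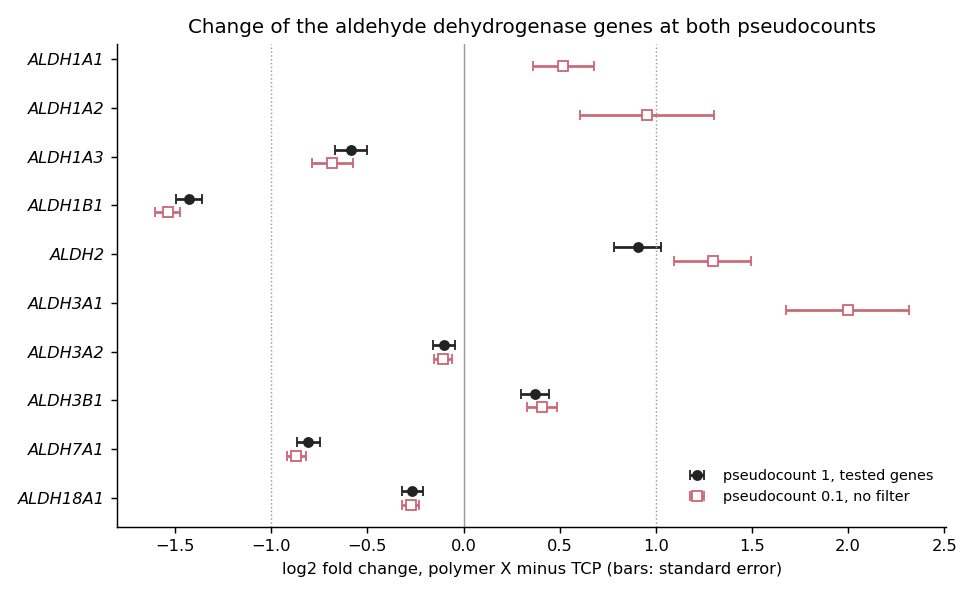
Log2 fold change (horizontal axis, polymer X minus TCP) of the 10 genes, with standard errors as bars, on log2(FPKM + 1) for the 7 tested genes (filled circles) and on log2(FPKM + 0.1) with no filter for all 10 (open squares). Dotted lines mark the fold change minimum in each direction, and ALDH2 lies on either side of it at 0.90 and 1.30.

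The ALDH3 enzymes act mainly on medium and long-chain aldehydes, including those from lipid peroxidation. ALDH3A1 (NM_001330150, hg19 chromosome 17, 19641298 to 19651746, minus strand), a cytosolic enzyme abundant in the cornea, had an FPKM of 0.033 and 0.111 on TCP and 0.719 and 0.446 on polymer X. Both polymer X libraries stood well above both TCP libraries, with 46 and 29 tags against 2 and 8. The ratio scaled to library size was 7.74, with an exact 95% interval of 3.99 to 16.8 for counting error, or 3.08 to 25.5 if tags came in pairs. The gene lay under the filter on low values, and with no filter and a pseudocount of 0.1 it was called higher, at 2.00 on the log2 scale (SE 0.32, limma adjusted p = 0.00366), as were 15.6% of the 16883 genes of that fit (9.15% were lower). Its level on polymer X remained under an FPKM of 1.

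ALDH3B1 (NM_001290059, hg19 chromosome 11, 67777775 to 67796749, plus strand) had an FPKM of 7.47 and 8.50 on TCP and 10.7 and 10.5 on polymer X. The polymer X libraries were above both TCP libraries, and the log2 fold change was 0.37 (SE 0.07, limma adjusted p = 0.00110). ALDH3A2, the fatty aldehyde dehydrogenase of the endoplasmic reticulum (NM_000382, hg19 chromosome 17, 19552064 to 19580908, plus strand), had an FPKM of 14.7 and 14.7 on TCP and 13.8 and 13.4 on polymer X. It was the 1 tested member that did not pass the test at any fold, at -0.10 on the log2 scale (SE 0.06, limma adjusted p = 0.131). Under quantile normalization its log2 fold change was 0.05. Summed over the 3 ALDH3 genes, the FPKM was 22.2 and 23.3 on TCP and 25.2 and 24.4 on polymer X.

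The remaining pair serves amino acid metabolism. ALDH7A1 (antiquitin), which oxidizes the semialdehyde formed in lysine breakdown (NM_001201377, hg19 chromosome 5, 125877533 to 125931082, minus strand), had an FPKM of 16.7 and 16.1 on TCP and 8.87 and 9.02 on polymer X. The groups were separated by far more than the spread within either, and the log2 fold change was -0.81 (SE 0.06, limma adjusted p = 1.49e-06), short of the fold change minimum. A processed pseudogene, ALDH7A1P1, shares 7.12% of the 50-base words of its transcript. ALDH18A1, which makes pyrroline-5-carboxylate for the synthesis of proline and ornithine (NM_001323417, hg19 chromosome 10, 97365686 to 97416567, minus strand), had an FPKM of 38.2 and 39.3 on TCP and 32.5 and 31.6 on polymer X. Its log2 fold change was -0.27 (SE 0.05, limma adjusted p = 0.00136) but 0.02 under quantile normalization (adjusted p = 0.785), so its direction depends on the scaling.

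The order of the levels is given here among the 10 genes only. On TCP the order from high to low was ALDH18A1, ALDH1B1, ALDH7A1, ALDH3A2, ALDH3B1, ALDH1A3, ALDH2, ALDH3A1, ALDH1A1 and ALDH1A2, and the libraries of neighbours overlapped for ALDH3A1 and ALDH1A1. On polymer X, ALDH3A2 and ALDH3B1 stood after ALDH18A1, followed by ALDH7A1, ALDH1B1, ALDH1A3, ALDH2, ALDH3A1, ALDH1A2 and ALDH1A1, with overlap for the last pair. ALDH1B1 thus went from the level next to ALDH18A1 to the middle of the order. The share of ALDH1B1 in the summed FPKM of the 10 genes was 19.3% ± 0.0122 on TCP and 8.74% ± 0.577 on polymer X (SD, n = 2). That of ALDH2 was 1.15% ± 0.00653 and 3.99% ± 1.07, and that of ALDH3B1 was 7.47% ± 0.550 and 13.2% ± 0.159. ALDH1A1 held 0.0577% ± 0.00702 on TCP and 0.164% ± 0.0293 on polymer X, where ALDH1A2 held 0.0232% ± 0.0329 and 0.182% ± 0.121. ALDH18A1, which has a biosynthetic role, held 36.3% ± 0.0694 and 39.7% ± 0.701.

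Taking the ALDH1A genes with ALDH1B1 and ALDH2, whose enzymes accept retinaldehyde or acetaldehyde, the share was 26.8% and 27.2% in the TCP libraries and 17.5% and 19.2% in the polymer X libraries. The summed FPKM of these 5 genes was 28.3 and 29.4 on TCP and 14.1 and 15.5 on polymer X, a fold of 0.513. ALDH1B1 and ALDH1A3 carried nearly all of it on TCP, and ALDH2 joined them on polymer X. The summed FPKM of all 10 genes was 105 and 108 on TCP and 80.8 and 80.4 on polymer X. The sum over all 19475 symbols was also lower on polymer X, at 278079 and 271696 against 313837 and 303382.

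**Figure D3:**
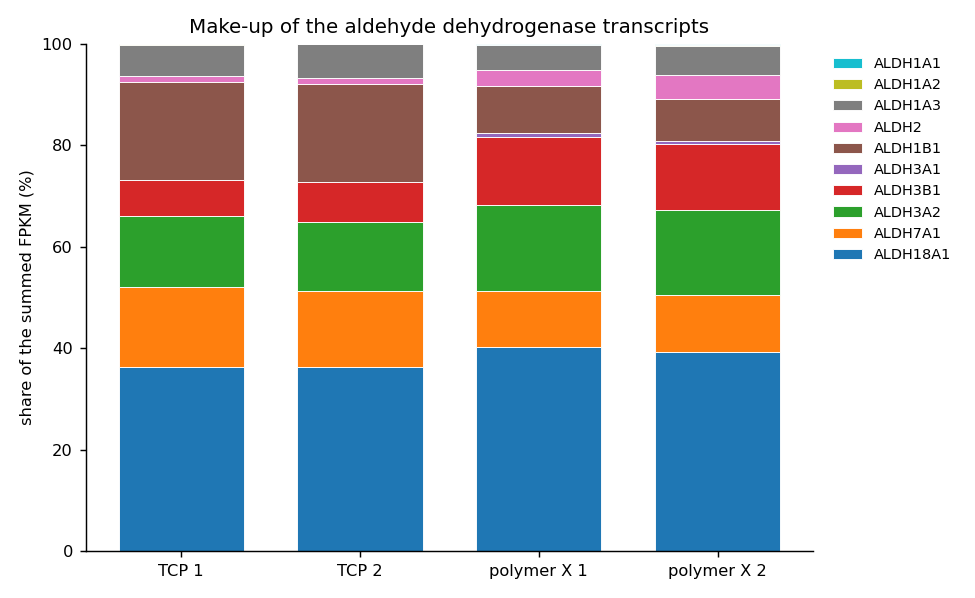
Share of each gene in the summed FPKM of the 10 genes (vertical axis, percent) in each library (horizontal axis), as stacked bars. ALDH1B1 (brown) shrinks from 19.3% on TCP to 8.74% on polymer X, ALDH2 (pink) and ALDH3B1 (red) widen, and ALDH1A1 and ALDH1A2 are too thin to see.

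The listed transcripts of each member gave the same direction. Between 1 and 10 transcripts were listed per gene, and the widest range of log2 fold changes within a gene was 0.49 to 0.56, for ALDH3A1. None of the members overlapped another gene symbol of the table on either strand by the hg19 coordinates given there. In RefSeq promoters of GRCh38.p14 (250 bases before to 50 after the start), 11 windows were found for the members, with no entry for ALDH2 and ALDH3A1. The STAT motif TTCNNNGAA, searched on both strands, occurred in 0 of these 11 windows and in 7.66% of all 35116, which says only that these letters are not in the windows. Over the 4 libraries, the tested genes with the profile closest to that of ALDH1B1 were CCDC137, STIP1 and VBP1, with log2 fold changes of -1.43, -1.43 and -1.40 and a distance of at most 0.0251 on the log2 scale. They were picked from all tested genes for that small distance, so their likeness follows from the selection and was not tested.

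Of the 9 other aldehyde dehydrogenase genes, 5 were tested, and ALDH4A1 was called lower, as were 9.45% of all tested genes. ALDH4A1, which oxidizes the pyrroline-5-carboxylate formed from proline, fell from an FPKM of 4.63 and 3.99 on TCP to 0.948 and 1.06 on polymer X (log2 fold change -1.40, SE 0.09). ALDH9A1, an enzyme of carnitine synthesis and the most abundant of the 9, had an FPKM of 18.0 and 19.0 on TCP and 13.5 and 11.1 on polymer X (log2 fold change -0.56). Its level was above that of ALDH7A1 in both groups. ALDH16A1, at 8.08 and 8.31 on TCP and 7.68 and 5.84 on polymer X, lay near ALDH3B1 on TCP. The log2 fold changes were -0.26 for ALDH16A1, 0.23 for ALDH5A1 (succinic semialdehyde) and 0.35 for ALDH6A1 (methylmalonate semialdehyde). ALDH1L1, ALDH1L2, ALDH3B2 and ALDH8A1 were not tested, with an FPKM of at most 0.669 in any library. The median of the 5 tested genes was -0.26.

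Retinoic acid is the product of the ALDH1A enzymes. Among the genes listed for retinoid supply and for retinoic acid binding, clearance, receptors and response, every gene called was higher on polymer X. By the same rule 10.7% of all tested genes were called higher and 9.45% lower. Of 15 genes found for retinoid supply, 8 were tested, 2 were called higher and 0 lower, with a median log2 fold change of 0.26. Both genes called had passed the filter only through the polymer X libraries, where they were high. DHRS3 was listed with supply, although it reduces retinaldehyde back to retinol, and it is itself induced by retinoic acid. Its FPKM rose from 0.0995 ± 0.00212 to 6.67 ± 0.466 (SD, n = 2), or 2.80 on the log2 scale. Of the 4 tested genes for retinoic acid binding and clearance, CRABP1 rose from 3.84 ± 0.00354 to 18.8 ± 0.334 (SD, n = 2), or 2.03 on the log2 scale, and CRABP2 rose by 1.10. Both encode carriers of retinoic acid in the cytosol.

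RARA, the retinoic acid receptor alpha, was the 1 of 4 tested retinoid receptor genes that was called, going from an FPKM of 9.02 ± 0.329 to 23.8 ± 0.660 (SD, n = 2), or 1.31 on the log2 scale. Among 11 tested genes listed as retinoic acid targets, 4 were called higher and 0 lower, and their median log2 fold change was 0.70. RARRES3, ICAM1 and TGM2 rose most, with log2 fold changes of 2.60, 2.37 and 1.53. ICAM1, with an FPKM of 0.475 and 0.330 on TCP and 6.22 and 6.28 on polymer X, passed the filter only through the group where it was high, so its call says little beyond that. RARRES3 and ICAM1 are also known to respond to interferons, and TGM2, a transglutaminase, to several cytokines. None of the genes in the 4 retinoid lists was called lower, where that rule took 10.7% of all tested genes as higher and 9.45% as lower. Without a fold change minimum, 5 were higher and 0 lower for supply, 2 and 2 for binding and clearance, 3 and 1 for receptors and 9 and 1 for targets, beside the 37.4% and 43.6% of all tested genes. FABP5, a fatty acid-binding protein that also carries retinoic acid, was among the lower ones at -0.73 on the log2 scale. RARB and CYP26A1, direct targets of retinoic acid receptors, were not tested and had an FPKM of at most 0.234 in any library. Retinoic acid itself was not measured.

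The lists around the other members had medians under that of all tested genes, of which 10.7% were called higher and 9.45% lower. The 7 tested genes of proline and glutamate metabolism had a median log2 fold change of -0.58, and 0 were called higher and 1 lower. In the list for lysine and choline breakdown, the 3 tested genes had a median of -0.42 and no call. For fatty aldehydes and ether lipids, 8 genes were tested, 0 were called higher and 2 lower, with a median of -0.44. SPHK1, a sphingosine kinase, fell by 1.70 on the log2 scale, and AGPS, an enzyme of ether lipid synthesis, fell by 1.44. Of 14 tested genes for other carbonyl enzymes, 0 were called higher and 2 lower, with a median of -0.15. Those called were AOX1, an aldehyde oxidase, and GLO1, a glyoxalase, with log2 fold changes of -1.83 and -1.08. Without a fold change minimum, 4 of this list were higher and 6 lower, beside 37.4% and 43.6% of all tested genes.

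**Figure D4:**
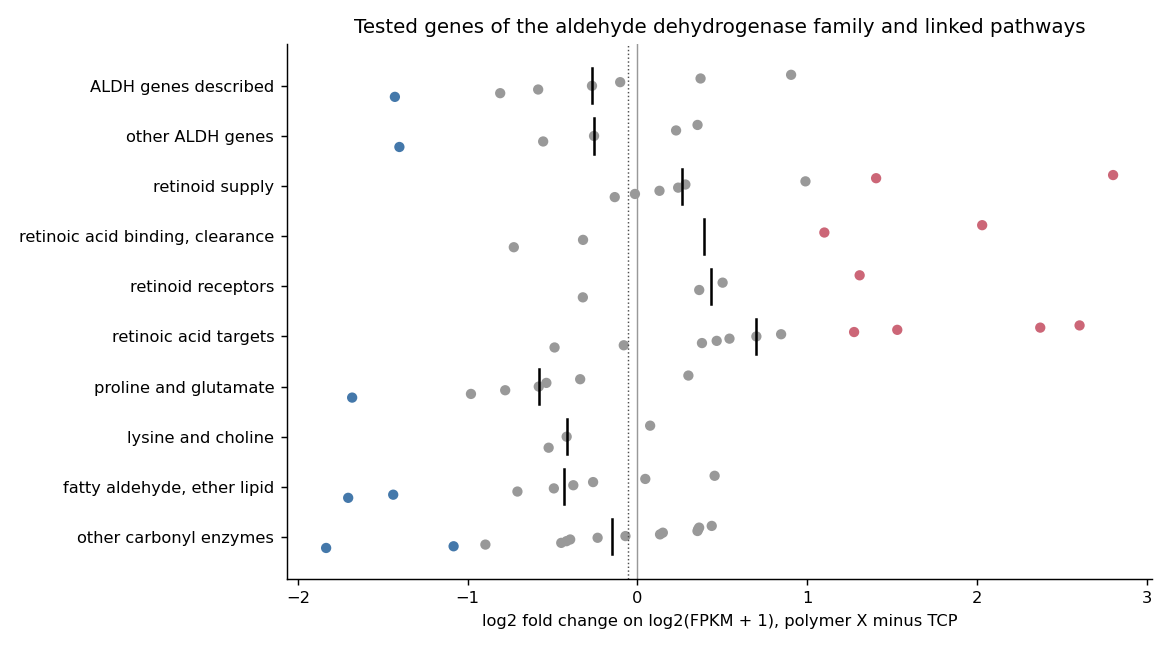
Log2 fold change on log2(FPKM + 1) (horizontal axis, polymer X minus TCP) of each tested gene in the aldehyde dehydrogenase family and the linked lists, with genes called higher in red, genes called lower in blue, others in gray and the median of each list as a black bar. The dotted line is the median over all tested genes, -0.06, and the called genes of the 4 retinoid lists all lie to its right.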

How the data were processed

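RNA-seq of 4 SKOV3 libraries was used, 2 on TCP and 2 on polymer X, grouped by sample title. The authors deposited FPKM values per RefSeq transcript, made per the file headers with HOMER on hg19 from exon tags of both strands and rounded to 3 decimals. The submitters' processing notes also name STAR 2.4.0. The members and gene lists were chosen with earlier results of these data known. Each symbol was represented by its transcript of highest mean over the 4 libraries. Genes that reached an FPKM of 1 in 2 or more libraries entered the test on log2(FPKM + 1), a scale that understates changes of low genes, with limma 3.58.1 in R 4.3.3 (mean-variance trend, Benjamini-Hochberg adjustment). A call needed an adjusted p under 0.05 and a log2 fold change of 1 or more in either direction. Tags were recovered by finding the number per library that made FPKM times length whole, and counting intervals cover counting error only. Named were all family genes, up to 3 called genes per direction of each other list, and the 3 genes closest to the member with the largest change; other genes were named after their values were seen, and some genes that this rule names are not reported here. Alternatives were another pseudocount, other filters, scalings, a block, summed transcripts, other fold change minimums, no trend and each library left out. The fit was tested on simulated data, where 175 of 200 changed genes (log2 fold change 1.5) and 0 of 11517 unchanged genes were called among 11717. The spread of the simulated tags was set by hand and not estimated from these libraries. The 0 therefore does not measure the rate of false calls in the real data.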

Additional observations from a re-analysis of the deposited data

How the results depend on the processing

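Of 90 values of single members under the alternatives, 84 kept their direction and side of the threshold. Under quantile normalization ALDH3A2 (0.050) and ALDH18A1 (0.016) changed sign, and the cause was not tested. The count of members called higher, 0, was 1 with a pseudocount of 0.1, 2 with the transcripts summed, 2 without a fold change minimum and 2 with a pseudocount of 0.1 and no filter, a setting chosen after seeing the data. With each library left out in turn it was 0 to 1, the 1 being ALDH2 without polymer X replicate 1. ALDH3A1 entered when transcripts were summed because its tags then count once per transcript, and the same recounting applies to ALDH2. Over all genes, the share called higher was 15.4% with a pseudocount of 0.1, 37.4% without a fold change minimum and 15.6% with that pseudocount and no filter. With the transcripts summed, 1644 of 12490 genes were called higher. The count called lower, 1, was 4 without a fold change minimum and 0 at a minimum of 2, and stayed at 1 to 1 with each library left out, where the lone library of a group is assumed to vary like the others. Over all genes, 1285 were called higher and 1131 lower. These counts were 702 higher when only genes with a mean FPKM from 5 upwards were tested (42.2% of calls were higher, against 53.2%), 4477 and 5212 without a fold change minimum, 281 and 150 at a minimum of 2, and 2627 higher with a pseudocount of 0.1 and no filter. Leaving out each library gave 1289 to 1325 higher and 1053 to 1234 lower.

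Summing transcripts counts shared tags again for each one, so shares of genes with many transcripts grow by construction. On TCP and polymer X they were then 70.7% and 70.5% for ALDH18A1, 9.17% and 5.95% for ALDH7A1, 5.54% and 6.12% for ALDH3A2, 3.94% and 1.60% for ALDH1B1, 2.64% and 1.93% for ALDH1A3, 0.469% and 1.45% for ALDH2, and 0.0117% and 0.0300% for ALDH1A1, with 11.8% for ALDH3B1 on polymer X.

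With the replicate number as a block, the counts were again 0 and 1 for the members and 1285 and 1131 for all genes. Deviations of same-numbered libraries correlated at 0.0927 over 11964 genes, so no pairing was assumed. Depth limits ALDH1A1 and ALDH1A2, neither with more than 28 tags in a library.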
